A study of Mus musculus with 8 samples.

Results

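The mu and pi classes of cytosolic glutathione transferases are described here as 9 mouse genes, Gstm1 to Gstm7 and Gstp1 and Gstp2, out of 18217 gene symbols with a probe on the array. They were picked by gene name, with earlier results of these data known, and found through the RefSeq accession that the array design gives each probe; the rule itself uses no measured value. A probe was found for 8 of the 9, and none for Gstp2. Gstm1 and Gstp1 had more than 1 probe, so the 8 genes were read by 10 probes, and all 10 were well above background on all 8 arrays with 0 spots set aside as outliers.

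RNA was taken from mouse embryonic fibroblasts (MEFs), connective tissue cells grown out of embryos, and hybridised to 1-colour arrays. The Keap1-/- allograft group (2 arrays) came from tumours formed in nude mice by 3000000 injected Keap1-/- cells, and the WT allograft group (2 arrays) from tumours formed by 10000000 injected wild-type (WT) cells, both taken at 100 to 150 mm3. The Keap1-/- dish and WT dish groups (2 arrays each) came from the same lines in culture. Both lines bear the letters TR, which the labels do not spell out, and the ages of the mice are not given in the sources used here. With 1 line of each genotype, genotype and line cannot be told apart. Nude mice lack a working thymus but keep macrophages, neutrophils, B cells and other host cells, so a tumour's RNA can hold host transcripts. In such bulk RNA, fewer cells of a type and less RNA per cell cannot be told apart. Whether replicates 1 and 2 are separate cultures or animals is not stated, so the p-values measure only the spread between these arrays, which may be technical. Replicate 1 of every group lies on one slide and replicate 2 of every group on the other.

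Levels are log2 values of the scanner's processed intensity scaled to the 75th percentile of that array, so that 0 is the level of that percentile and 1 unit is a doubling. Each probe has its own efficiency, and no gene's level is set against another gene's. On these arrays 60.6% to 64.5% of probes were well above background in dish and 69.7% to 74.7% in allograft, with 75th percentiles between 1084 and 1546 intensity units and no saturated spot. The Keap1 probe itself was lower in the Keap1-/- line, 3.23-fold in allograft (limma adjusted p = 0.000722) and 1.82-fold in dish (limma adjusted p = 0.0197), and was well above background in both lines; whether it lies in the deleted part was not tested.

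Glutathione transferases join the tripeptide glutathione to reactive electrophiles, which makes them water soluble and ready for export. KEAP1 holds the transcription factor NRF2, product of Nfe2l2, in the cytoplasm for degradation, and NRF2 with a small MAF partner binds antioxidant response elements, whose core is written TGACNNNGC. Several mu and pi class genes of mouse liver are known NRF2 targets. Gstm1 is a major mu class enzyme of mouse liver, Gstm5 is best known from brain and testis, and Gstp1 encodes the main pi class enzyme, known also as an inhibitor of the stress kinase JNK. The mu genes lie next to each other on chromosome 3, in the order Gstm5, Gstm7, Gstm6, Gstm3, Gstm2, Gstm1 and Gstm4, and the pi pair lies on chromosome 19. Members of a class are close in sequence, and Gstp1 and Gstp2 are near-identical, so a probe may also take up transcript of a relative; probe sequences were not used here.

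The 250 bases before the start sites of 5 members are shown, taken from RefSeq on build GRCm38.p6 and written on the strand of the gene. Gstm1 (chr3:108017974-108018223, minus strand, the first of its listed starts) and Gstm3 (chr3:107969175-107969424, minus strand) are shown because they moved together on the arrays. Gstm5 (chr3:107895604-107895853, plus strand), Gstp1 (chr19:4037913-4038162, minus strand) and Gstp2 (chr19:4042222-4042471, minus strand) are shown because they hold a match. Capitals mark matches, on either strand, to TGACNNNGC or to TGAGTCA, a binding motif of the AP-1 factors. The search for TGAGTCA was added after the sequences had been seen.
Gstm1: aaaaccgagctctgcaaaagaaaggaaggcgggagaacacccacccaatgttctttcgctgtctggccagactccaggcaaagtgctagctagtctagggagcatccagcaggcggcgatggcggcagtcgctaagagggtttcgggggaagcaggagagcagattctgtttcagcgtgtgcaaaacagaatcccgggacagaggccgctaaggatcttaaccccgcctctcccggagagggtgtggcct
Gstm3: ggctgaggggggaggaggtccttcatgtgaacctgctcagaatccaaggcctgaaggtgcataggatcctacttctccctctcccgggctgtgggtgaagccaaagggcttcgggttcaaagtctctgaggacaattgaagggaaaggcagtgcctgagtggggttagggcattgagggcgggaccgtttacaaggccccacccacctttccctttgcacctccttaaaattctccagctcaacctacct
Gstm5: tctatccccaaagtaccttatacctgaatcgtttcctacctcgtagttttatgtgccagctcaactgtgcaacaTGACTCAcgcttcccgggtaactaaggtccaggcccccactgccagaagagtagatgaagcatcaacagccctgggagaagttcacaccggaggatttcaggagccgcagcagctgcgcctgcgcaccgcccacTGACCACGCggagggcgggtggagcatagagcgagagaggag
Gstp1: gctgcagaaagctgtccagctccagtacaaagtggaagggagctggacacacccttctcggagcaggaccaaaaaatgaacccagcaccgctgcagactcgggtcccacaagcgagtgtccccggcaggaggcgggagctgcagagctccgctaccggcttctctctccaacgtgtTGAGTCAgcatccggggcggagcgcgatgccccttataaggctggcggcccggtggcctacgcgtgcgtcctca
Gstp2: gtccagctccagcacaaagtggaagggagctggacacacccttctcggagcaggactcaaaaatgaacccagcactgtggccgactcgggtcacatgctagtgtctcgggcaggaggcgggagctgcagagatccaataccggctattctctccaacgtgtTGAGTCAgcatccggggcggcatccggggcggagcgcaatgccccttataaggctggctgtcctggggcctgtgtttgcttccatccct

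All 9 members matched an entry in the RefSeq table, Gstp2 included, with 14 start sites in all. TGACNNNGC was found in the upstream 250 bases or the next 50 bases of 2 of the 9 genes, against 14% of 27025 genes with such a window. The matches were TGACCACGC, which begins 42 bases before the start of Gstm5, and TGACAAAGC, which begins 129 bases before one of the starts of Gstm7. TGAGTCA was found in 3 of the 9 genes, against 5.95% of all genes. It began 74 bases before the Gstp1 start and 89 bases before the Gstp2 start, and a copy on the opposite strand began 176 bases before the Gstm5 start. Read on the opposite strand, TGAGTCA is TGACTCA, which meets TGACNNNGC where the bases GC follow it on that strand. No match of a member was of that kind. On the printed strand the TGAGTCA of Gstp1 and of Gstp2 is followed by GC. The resulting TGAGTCAGC departs from TGACNNNGC only in the G after TGA. Which factors bind these sites was not tested. The upstream sequences of Gstp1 and Gstp2 were 78.1% identical when aligned. The closest windows of Gstm1 and Gstm3 were 56.4% identical, and the Gstm1 window of that pair is from another listed start than the one printed. A match is a description of letters, and the window leaves out more distant sequence.

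The mu gene Gstm1 was higher in the Keap1-/- line in both growths. Its level was 5.20 and 5.10 in Keap1-/- allograft against 3.23 and 3.38 in WT allograft, and 5.04 and 5.01 in Keap1-/- dish against 3.36 and 3.32 in WT dish. All Keap1-/- arrays lay above all WT arrays, whichever growth they came from. The difference between the lines was 1.84 ± 0.09 log2 units in allograft (SE, 2 arrays against 2; 3.59-fold; limma adjusted p = 5.83e-05) and 1.68 ± 0.09 in dish (3.21-fold, limma adjusted p = 0.000179). The second Gstm1 probe gave 3.63-fold in allograft (limma adjusted p = 0.000286) and 3.29-fold in dish (limma adjusted p = 0.000951). Within slides 1 and 2 the allograft difference was 1.97 and 1.72, and the dish difference was 1.68 on both. The change of the difference with growth was 0.16 log2 units (95% interval -0.17 to 0.49, limma adjusted p = 0.42), which does not show that the growths acted alike.

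Gstm3, another mu gene, followed the same pattern. It stood at 3.48 and 3.56 in Keap1-/- allograft against 1.75 and 1.93 in WT allograft, and at 3.53 and 3.55 in Keap1-/- dish against 1.78 and 1.79 in WT dish. The 4 groups fell into 2 levels by line, and arrays of 1 line overlapped between growths. Gstm3 rose 3.21-fold in the Keap1-/- line in allograft (1.68 ± 0.10 log2 units, SE; limma adjusted p = 8.59e-05) and 3.36-fold in dish (1.75 ± 0.10, limma adjusted p = 0.000166). Its difference between the lines shifted with growth by -0.07 log2 units (95% interval -0.40 to 0.27, limma adjusted p = 0.77). Over the 8 arrays the levels of Gstm1 and Gstm3 had a Pearson r of 0.996, and since both genes lie in 1 cluster and the arrays fall into 2 lines, this is a description only.

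Gstm2, which lies between Gstm3 and Gstm1 on the chromosome, turned round between the growths. It was at 1.26 and 1.35 in Keap1-/- allograft against 2.37 and 2.43 in WT allograft, and at 1.73 and 1.83 in Keap1-/- dish against 0.63 and 0.53 in WT dish. The highest group was WT allograft and the lowest WT dish, with both Keap1-/- groups between them, and no 2 groups overlapped. Gstm2 fell in the Keap1-/- line in allograft, by 1.10 log2 units (2.14-fold lower, SE 0.09, limma adjusted p = 0.000325), and rose in dish by 1.20 (2.29-fold, SE 0.09, limma adjusted p = 0.000557). The difference between these differences was -2.30 ± 0.13 log2 units (limma adjusted p = 0.000179). It was -2.22 within slide 1 and -2.38 within slide 2.

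Gstm4, at the far end of the mu cluster, was lower in the Keap1-/- line in allograft, as Gstm2 was, and higher in dish. Its level was -4.50 and -4.45 in Keap1-/- allograft against -3.52 and -3.64 in WT allograft, and -4.48 and -4.07 in Keap1-/- dish against -4.96 and -4.85 in WT dish. Groups of different lines did not overlap, and the Keap1-/- arrays overlapped between growths. Gstm4 fell in allograft (1.86-fold lower, -0.90 ± 0.15 log2 units, limma adjusted p = 0.00507) and rose in dish (1.55-fold, 0.63 ± 0.15, limma adjusted p = 0.0345). The shift with growth was -1.53 ± 0.21 log2 units (limma adjusted p = 0.00351). The dish call held in 5 of 18 alternatives. It was lost when any array other than Keap1-/- dish replicate 1 was left out, with limma adjusted p from 0.0603 to 0.143. It was also lost under array-median (0.0575) or quantile scaling (0.069), with unscaled intensities (0.0578), with no filter on dim probes (0.0654) and with only the dish arrays fitted (0.107). With normexp background correction of the median signal, the allograft difference was -0.44 (limma adjusted p = 0.0444), the shift with growth was -0.76 (limma adjusted p = 0.0265) and the dish difference was 0.32 (limma adjusted p = 0.23).

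**Figure D1:**
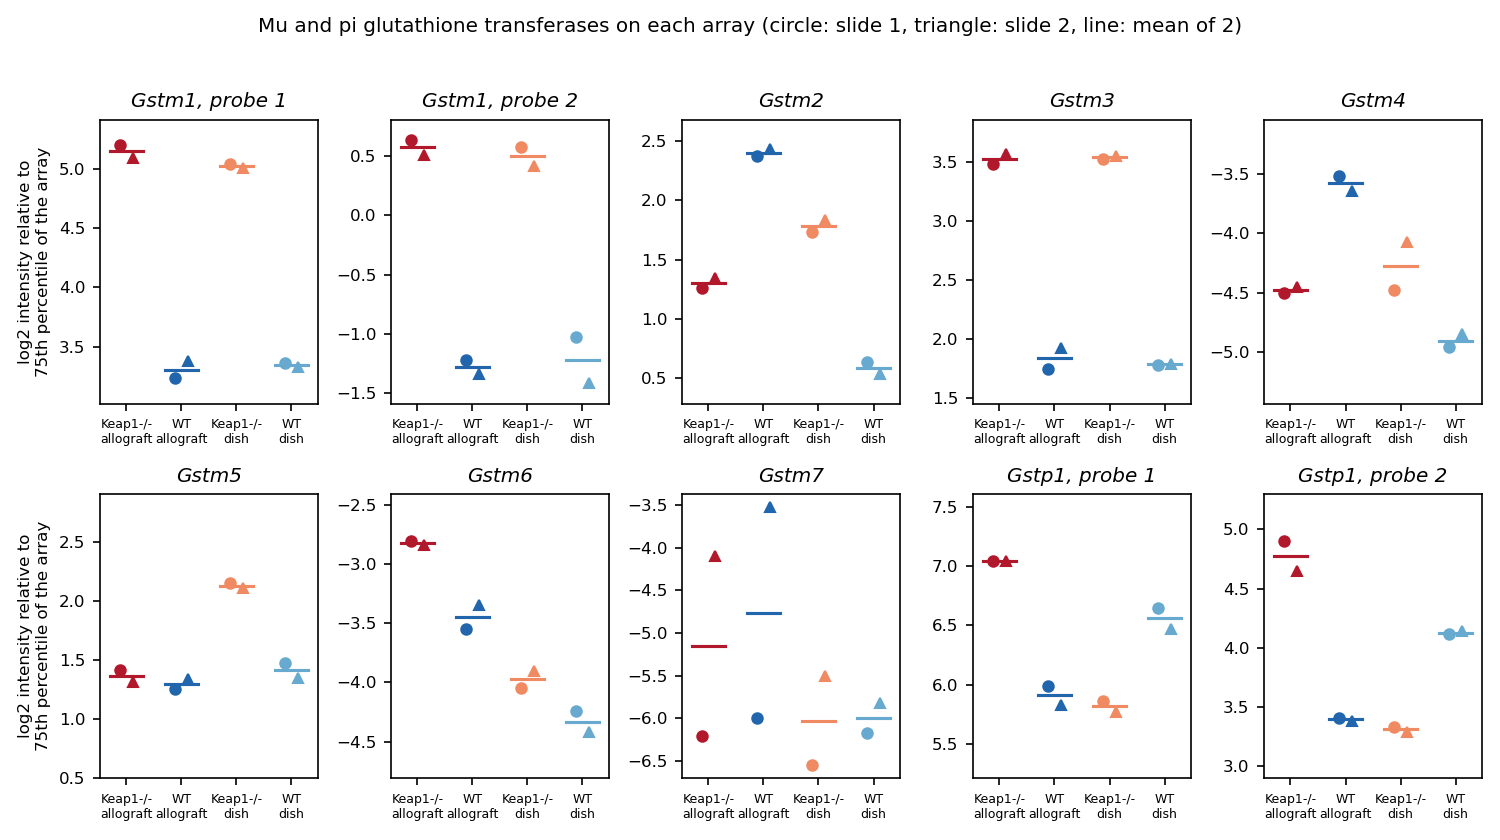
Level of the 10 probes of the 8 measured genes on every array, as log2 intensity scaled to the array's 75th percentile, 1 panel per probe with its own vertical axis; circles are arrays of slide 1, triangles arrays of slide 2, and lines the means of 2 arrays. Gstm1 and Gstm3 separate by line, whereas for Gstm2, Gstm4 and Gstp1 the higher line in allograft is the lower one in dish.

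Gstp1, the pi class gene, also turned round, in the opposite sense to Gstm2. It was at 7.04 and 7.05 in Keap1-/- allograft against 5.99 and 5.82 in WT allograft, and at 5.86 and 5.77 in Keap1-/- dish against 6.65 and 6.47 in WT dish. Keap1-/- allograft was highest and WT dish next, and the arrays of WT allograft and Keap1-/- dish overlapped below them. Gstp1 rose 2.20-fold in the Keap1-/- line in allograft (1.14 ± 0.11 log2 units, SE; limma adjusted p = 0.000539) and was 1.67-fold lower in dish (-0.74 ± 0.11, limma adjusted p = 0.00616). The shift with growth was 1.88 ± 0.15 log2 units (limma adjusted p = 0.000517), and 1.84 and 1.92 within slides 1 and 2. The dish call was lost without Keap1-/- dish replicate 2 (limma adjusted p = 0.0529) and with unscaled intensities (0.094).

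The second Gstp1 probe moved in the same directions. It gave 4.90 and 4.65 in Keap1-/- allograft against 3.41 and 3.38 in WT allograft, and 3.33 and 3.29 in Keap1-/- dish against 4.11 and 4.14 in WT dish. The arrays of the lines did not overlap in either growth. This probe was 2.60-fold higher in the Keap1-/- line in allograft (limma adjusted p = 0.000223) and 1.76-fold lower in dish (limma adjusted p = 0.00405). Gstp2 has no probe of its own here, and how much of its transcript the Gstp1 probes took up was not tested.

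Gstm5 differed between the lines in dish and not detectably in allograft. Its level was 1.41 and 1.32 in Keap1-/- allograft against 1.25 and 1.34 in WT allograft, and 2.15 and 2.11 in Keap1-/- dish against 1.48 and 1.35 in WT dish. Keap1-/- dish stood above the other three groups, and the allograft arrays of the lines overlapped. Gstm5 rose 1.64-fold in dish (0.71 ± 0.09 log2 units, limma adjusted p = 0.00423), while the allograft difference was 0.07 (95% interval -0.16 to 0.30, limma adjusted p = 0.598). The difference shifted with growth by -0.64 ± 0.13 (limma adjusted p = 0.0148), a call lost without Keap1-/- dish replicate 1 (0.064), Keap1-/- dish replicate 2 (0.0543) or WT allograft replicate 2 (0.0519), and with array-median scaling (-0.49, limma adjusted p = 0.119). Unscaled intensities gave a shift of -0.995 (limma adjusted p = 0.0387).

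Gstm6 was higher in the Keap1-/- line in allograft. It stood at -2.80 and -2.84 in Keap1-/- allograft against -3.55 and -3.34 in WT allograft, and at -4.04 and -3.90 in Keap1-/- dish against -4.25 and -4.42 in WT dish. No 2 groups overlapped, and both allograft groups lay above both dish groups. The allograft rise was 1.54-fold (0.63 ± 0.12 log2 units, limma adjusted p = 0.00806), which unscaled intensities did not pass (0.40, limma adjusted p = 0.169). The dish difference of 0.36 (95% interval 0.07 to 0.65) missed the threshold after adjustment (limma adjusted p = 0.0885), and the shift with growth was 0.27 (limma adjusted p = 0.288).

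Gstm7 could not be resolved. Its level was -6.21 and -4.09 in Keap1-/- allograft against -6.00 and -3.53 in WT allograft, and -6.55 and -5.51 in Keap1-/- dish against -6.17 and -5.82 in WT dish. In every group the array on slide 2 was higher than the one on slide 1, and the groups overlapped. The standard error of a difference was 1.01 log2 units, and limma called Gstm7 in none of the 5 comparisons at an adjusted p or at an unadjusted p under 0.05.

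**Figure D2:**
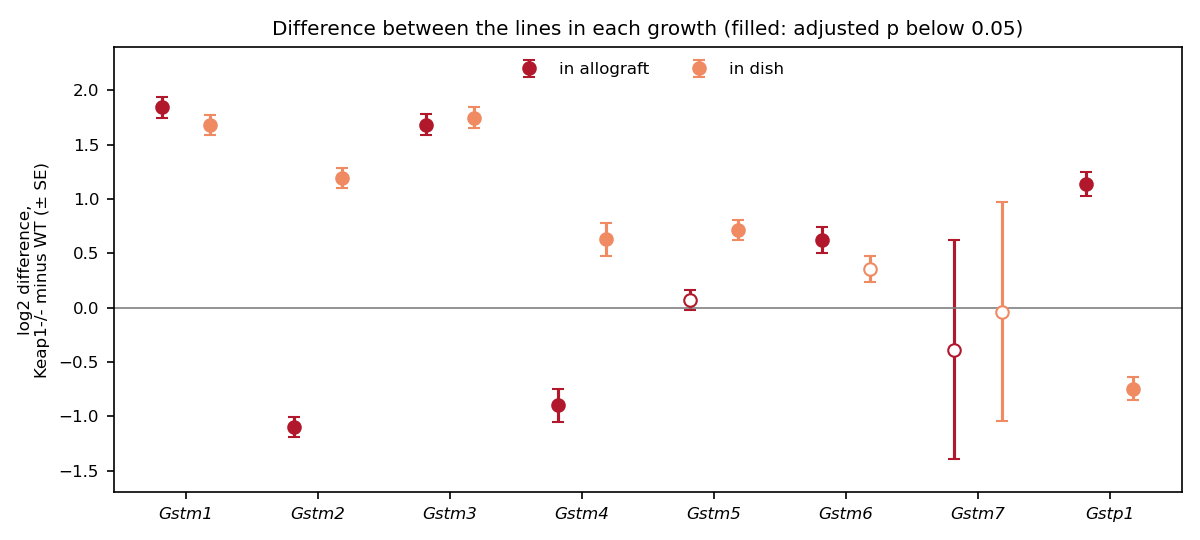
Difference between the lines, Keap1-/- minus WT, in log2 units for each gene in allograft (dark) and in dish (light), with bars of 1 standard error from the limma fit; filled points passed an adjusted p of 0.05. Gstm1 and Gstm3 lie between 1.68 and 1.84 in both growths, and the points of Gstm2, Gstm4 and Gstp1 lie on opposite sides of 0.

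Counted together, 4 of the 8 measured members were higher in the Keap1-/- line in allograft (Gstm1, Gstm3, Gstm6 and Gstp1), where 20.5% of 22919 tested targets were higher. Another 2 were lower (Gstm2 and Gstm4), where 21.3% of targets were lower, and 41.8% of targets were called either way. In dish 5 members were higher (Gstm1 to Gstm5), against 11.4% of targets, and 1 was lower (Gstp1), against 9.78%, with 21.1% called either way. The median difference of the members was 0.35 log2 units in allograft, beside 0.0043 for all tested targets, and 0.67 in dish, beside -0.05. For the shift of the difference with growth, 1 member was called higher (Gstp1) where 15.8% of targets were, and 3 lower (Gstm2, Gstm4 and Gstm5) where 17% were, with 32.9% of targets called either way. All 24 called differences of the members over the 5 comparisons had the same sign within slide 1 and within slide 2.

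Allograft was then set against dish within each line. These 2 comparisons depend on how arrays are scaled, and the array medians and 75th percentiles differed unequally: medians were 106 to 137 intensity units in allograft against 44.8 to 61.9 in dish, and 75th percentiles 1165 to 1546 against 1084 to 1330. Scaling by the array median in place of the 75th percentile moved the median difference of all targets to -0.84 in the Keap1-/- line and -1.04 in the WT line, beside 0.03 and -0.02 as reported. Quantile normalization moved these medians to -0.16 in both lines, and unscaled intensities moved the WT median to 0.36. In the Keap1-/- line 2 members were called higher in allograft (Gstm6 and Gstp1), against 35.8% of targets, and 2 lower (Gstm2 and Gstm5), against 29.1%, with 64.9% called either way. In the WT line 3 were called higher (Gstm2, Gstm4 and Gstm6), against 35.9%, and 1 lower (Gstp1), against 32.2%, with 68.1% called either way. Array-median scaling gave 0 members higher and 5 lower in the Keap1-/- line and 1 higher and 4 lower in the WT line, while quantile normalization gave 3 and 3 in the Keap1-/- line and 3 and 0 in the WT line.

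The growth differences of Gstm2 in the WT line and of Gstm5 in the Keap1-/- line were called under all settings run. Gstm2 was 3.53-fold higher in WT allograft than in WT dish (1.82 ± 0.09 log2 units, limma adjusted p = 2.16e-05), and the alternatives gave 0.80 to 2.21 log2 units, all called. In the Keap1-/- line Gstm2 was 1.39-fold lower in allograft (-0.48, limma adjusted p = 0.00489), with -1.35 under array-median scaling and no call with unscaled intensities (limma adjusted p = 0.0683). Gstm5 was 1.69-fold lower in Keap1-/- allograft than in Keap1-/- dish (-0.76 ± 0.09, limma adjusted p = 0.000765), called in all 18 alternatives, with -1.63 under array-median scaling. In the WT line its difference of -0.12 was not called (limma adjusted p = 0.31).

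Gstp1 was 2.35-fold higher in Keap1-/- allograft than in Keap1-/- dish (1.23 ± 0.11 log2 units, limma adjusted p = 0.000191), and array-median scaling reduced this to 0.36 (limma adjusted p = 0.0711). In the WT line Gstp1 was 1.57-fold lower in allograft (-0.65 ± 0.11, limma adjusted p = 0.00246), and quantile normalization left -0.02 (limma adjusted p = 0.84) and unscaled intensities -0.27 (limma adjusted p = 0.294), while array-median scaling gave -1.67. Gstm4 was 2.51-fold higher in WT allograft than in WT dish (1.33 ± 0.15, limma adjusted p = 0.00049), and array-median (0.31, limma adjusted p = 0.0767) and quantile scaling (0.28, limma adjusted p = 0.1) did not keep the call. Normexp gave 0.56 for it (limma adjusted p = 0.0107).

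Gstm6 was 2.22-fold higher in Keap1-/- allograft than in Keap1-/- dish (1.15 ± 0.12 log2 units, limma adjusted p = 0.000359) and 1.85-fold higher in WT allograft than in WT dish (0.88 ± 0.12, limma adjusted p = 0.000967). In the WT line the sign turned with array-median (-0.14) and quantile scaling (-0.12), and normexp gave 0.35 (limma adjusted p = 0.0338). In the Keap1-/- line those 3 settings gave 0.28 (limma adjusted p = 0.111), 0.39 (limma adjusted p = 0.0437) and 0.70 (limma adjusted p = 0.00123). Gstm1 and Gstm3 showed no difference past the threshold as scaled here. For Gstm1 the difference was 0.12 in the Keap1-/- line (95% interval -0.11 to 0.36) and -0.04 in the WT line (-0.27 to 0.20), and for Gstm3 it was -0.01 (-0.25 to 0.22) and 0.05 (-0.19 to 0.29). Array-median scaling turned these into -0.74 and -1.06 for Gstm1 and into -0.88 and -0.97 for Gstm3, all called, and quantile normalization into 0.41 and 0.39 for Gstm1, both called. Array-median scaling shifts all genes of an array alike, so it leaves a difference relative to the median of all targets as it was: 0.10 and -0.02 for Gstm1, and -0.04 and 0.07 for Gstm3.

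**Figure D3:**
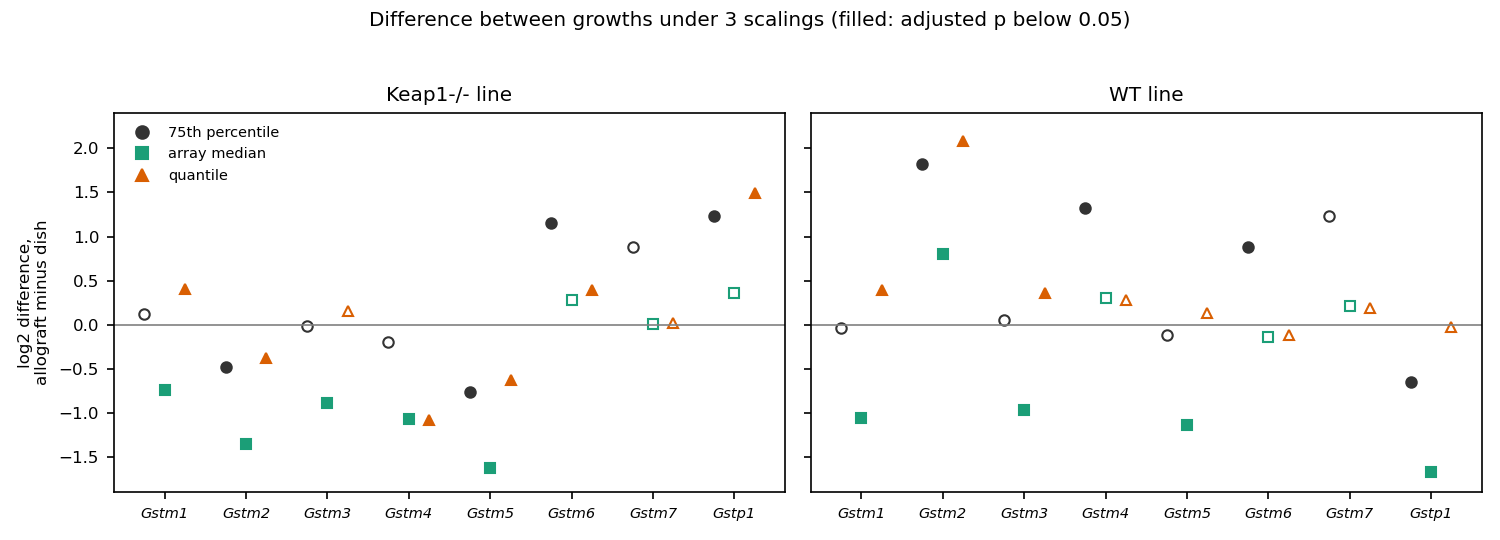
Difference between growths, allograft minus dish, in log2 units for each gene under 3 scalings of the arrays, with the Keap1-/- line left and the WT line right; filled symbols passed an adjusted p of 0.05. All 3 scalings gave a call in 1 direction for Gstm2 (higher in the WT line, lower in the Keap1-/- line) and for Gstm5 in the Keap1-/- line, and disagreed on call or direction for the other called genes.

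Host cells could add to any allograft level, and their markers differed between the tumours of the lines. The summed scaled intensity of 11 macrophage markers was 23.8 to 24.2 in Keap1-/- allograft against 92.1 to 105 in WT allograft, with all 11 detected in both, and 1.73 to 1.79 in Keap1-/- dish against 2.30 to 2.69 in WT dish, where 4 and 5 were detected and Adgre1, Lyz2 and Ptprc were not. The macrophage sum and the Gstm2 and Gstm4 levels were therefore all higher in WT allograft than in Keap1-/- allograft. For 7 neutrophil markers the sums were 3.67 to 3.97 in Keap1-/- allograft against 1.66 to 1.82 in WT allograft, with 6 and 5 detected, and below 0.1 in all dish arrays. Gstm1, Gstm3, Gstm6 and Gstp1 were higher in the tumours with the higher neutrophil sum. In dish, where the neutrophil sums were below 0.1, Gstm1 and Gstm3 were also higher in the Keap1-/- line (1.68 and 1.75 log2 units). Gstp1 was lower there, and Gstm6 was not called. For 9 endothelial markers, all detected in the tumours, the sums were 15.5 to 16.6 in Keap1-/- allograft against 18.8 to 20.1 in WT allograft. In dish 5 of them were detected in each line, with sums of 1.89 to 2.08 (Keap1-/-) and 2.63 to 3.13 (WT). The part of host cells in the allograft differences of the members was not tested.

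For 8 lymphocyte markers the sums were 0.142 to 0.263 in Keap1-/- allograft, with 5 detected, against 0.875 to 1.24 in WT allograft, with 8 detected. They thus lay on the side of the macrophage sum and of Gstm2 and Gstm4. In dish 4 of them were detected in each line, with sums of 0.118 to 0.159 (Keap1-/-) and 0.120 to 0.154 (WT), so the Keap1-/- allograft sums lay near those of cultured cells. For 10 skeletal muscle markers the sums were 4.50 to 22.8 against 1.18 to 4.42 (8 and 9 detected), for 8 adipocyte markers 12.8 to 16.2 against 5.52 to 17.5 (7 detected in each), and for 5 keratinocyte markers 0.193 to 2.90 against 0.756 to 0.772 (5 and 4 detected), in Keap1-/- allograft against WT allograft each time. Each line in dish also had 6 muscle, 3 adipocyte and 4 keratinocyte markers detected, and the keratinocyte sum of Keap1-/- dish was 0.578 to 0.614. Detection of such a marker in a tumour therefore does not by itself show host cells. In dish the labelled cell type had its markers: all 11 fibroblast markers were detected in the Keap1-/- line and 10 in the WT line, where Lum was missing. Their levels also differed between the lines. In Keap1-/- dish 7 of the 11 were called higher than in WT dish and 1 lower (median difference 2.32 log2 units), against 11.4% and 9.78% of all targets. In Keap1-/- allograft 3 were higher than in WT allograft and 4 lower (median -0.23), against 20.5% and 21.3%. The difference of these markers between the lines shifted with growth downward for 7 and upward for 1 (median -1.48), against 17% and 15.8% of all targets. Downward was the sense of Gstm2, Gstm4 and Gstm5, while Gstp1 shifted upward and the other measured members were not called. The part of these markers in the results of the members was not tested.

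**Figure D4:**
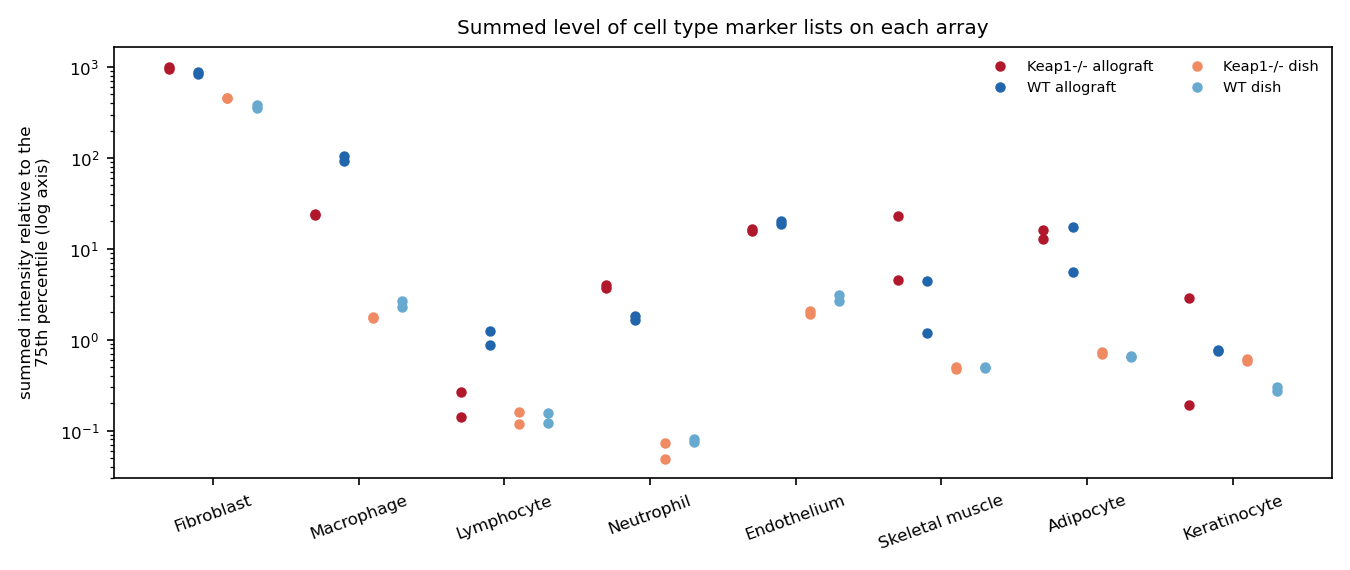
Summed linear scaled intensity of the markers of each cell type on every array, on a log axis, by group; points are arrays. The macrophage sum is highest in WT allograft (92.1 to 105) and the neutrophil sum in Keap1-/- allograft (3.67 to 3.97), and both are lowest in dish.

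Genes of the steps around these enzymes were read from lists chosen with earlier results known. Beside every count of these lists stand the shares of all targets. These were 20.5% higher and 21.3% lower in Keap1-/- allograft, and 11.4% higher and 9.78% lower in Keap1-/- dish. Of 12 tested transferases of other cytosolic classes, 7 were higher and 4 lower in Keap1-/- allograft than in WT allograft, and 7 higher and 1 lower in Keap1-/- dish than in WT dish. Gsta4, an alpha class enzyme that acts on products of lipid peroxidation, was 58.0-fold higher in allograft (limma adjusted p = 6.82e-06) and 66.9-fold in dish (limma adjusted p = 2.27e-05). Larger rises in this list were those of Gsta1 (875-fold in allograft and 71.9-fold in dish) and Gsta2. Gsta2 was 114-fold higher in dish, where only 1 of the 2 WT arrays read it as well above background. In allograft it was at least 549-fold higher, and there no WT array read it as well above background. Of the 3 microsomal transferases, all were higher in allograft, whereas in dish 1 was higher and 1 lower. The lower one was Mgst2, at 1.59-fold lower in dish (limma adjusted p = 0.00758) and 1.37-fold higher in allograft (limma adjusted p = 0.0158), so that it changed sides in the same sense as Gstp1.

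Of 6 genes that supply glutathione, 5 rose and 1 fell in allograft, and 3 rose and 1 fell in dish. Gclc and Gclm, the catalytic and modifier subunits of the first enzyme of glutathione synthesis, were 9.92-fold and 9.04-fold higher in Keap1-/- allograft than in WT allograft (limma adjusted p = 2.71e-05 and 1.64e-05). In dish they were 2.05-fold and 1.96-fold higher (limma adjusted p = 0.00366 and 0.00204). Slc7a11 of the same list rose more, 278-fold in allograft (limma adjusted p = 6.37e-06) and 16.2-fold in dish (limma adjusted p = 6.02e-05). Of 13 tested genes for the export and trimming of conjugates, 4 rose and 4 fell in allograft, where 20.5% and 21.3% of all targets did. In dish 5 rose, where 11.4% of all targets did. Abcc4, an export pump, was 20.1-fold higher in allograft (limma adjusted p = 8.62e-06) and 3.04-fold in dish (limma adjusted p = 0.000336). Anpep, an aminopeptidase, was 3.8-fold higher in dish (limma adjusted p = 0.000337).

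Among 10 tested genes of the KEAP1-NRF2 system 5 rose and 1 fell in allograft, where 20.5% and 21.3% of all targets did. The 1 that fell was Keap1, the gene that the genotype itself alters. In dish 3 fell, Keap1 among them, where 9.78% of all targets did. Mafg, a small MAF partner of NRF2, was 2.21-fold higher in Keap1-/- allograft (limma adjusted p = 0.00276). Maff, another partner, was 1.74-fold higher in allograft (limma adjusted p = 0.00345) and 2.08-fold lower in dish (limma adjusted p = 0.00252). Nfe2l2 was 1.52-fold higher in allograft (limma adjusted p = 0.00529) and differed by 0.07 log2 units in dish (limma adjusted p = 0.743). Of 15 other NRF2 targets 14 rose in allograft and 11 in dish. Among them the quinone reductase Nqo1 rose 55.1-fold in allograft (limma adjusted p = 5.03e-06) and 12.2-fold in dish (limma adjusted p = 2.27e-05). In both growths Nqo1 rose more than any mu or pi member. Cbr3 rose more than Nqo1 in dish, 13.8-fold (limma adjusted p = 2.27e-05), and 7.57-fold in allograft (limma adjusted p = 1.79e-05).

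The genes whose levels followed Gstm1 most closely over the 8 arrays, of 14834 candidates, were Amph (Pearson r = 0.998), Hoxd11 (0.996), Gsta4 (0.995), Cavin4 (0.995) and Mdk (0.994). Amph and Hoxd11 were not well above background on any WT array. For Gstp1 they were Pgf (0.992), Nr1d1 (0.992), Bmp2 (0.988), Slc6a9 (0.985) and Pde6h (0.985). These correlations share the same 8 arrays in 4 groups and are given without a test.

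The genes beside the clusters were read for comparison. Of the 10 nearest protein-coding genes around the mu cluster 7 were tested, and 3 were lower in Keap1-/- allograft, where 21.3% of all targets were. They were Csf1 (2.02-fold), Gnat2 (1.77-fold) and Gnai3 (1.23-fold). In dish, where 11.4% of all targets were higher, Gnat2 alone was called, 1.36-fold higher (limma adjusted p = 0.042). Of the 10 around the pi pair 8 were tested, and 3 were higher in Keap1-/- allograft, where 20.5% of all targets were. These were Cdk2ap2 (4.55-fold), Pitpnm1 (2.82-fold) and Gstp3 (1.80-fold, limma adjusted p = 0.0138), a further pi class gene. In dish Pitpnm1 was called, 1.51-fold higher (limma adjusted p = 0.013), and Gstp3 differed by -0.53 log2 units (limma adjusted p = 0.102). In the shift of the difference with growth, the 3 called mu neighbours were lower, where 17% of all targets were, as were Gstm2, Gstm4 and Gstm5. Csf1 shifted by -1.37 log2 units (limma adjusted p = 0.00855), Gnat2 by -1.27 (limma adjusted p = 0.00231) and Gnai3 by -0.46 (limma adjusted p = 0.0301). The 3 called pi neighbours were higher, where 15.8% of all targets were, as was Gstp1. Cdk2ap2 shifted by 1.96 (limma adjusted p = 0.00362), Gstp3 by 1.38 (limma adjusted p = 0.0109) and Pitpnm1 by 0.90 (limma adjusted p = 0.00674). Gstp3 is of the same class as Gstp1, and whether their probes took up each other's transcript was not tested.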

How the data were processed

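Expression was measured on 8 one-colour Agilent arrays, 2 per group. The deposited scanner files hold intensity values from Agilent Feature Extraction 10.7.3.1, from which background and a spatial trend had been subtracted, per the file headers, and which are not scaled across arrays. The deposited table of series values repeats these intensity values, which differed from the processed signal by at most 0.496%. The genome build in the headers is mm9, and accessions were named through the RefSeq table of GRCm38.p6.

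From these the log2 of the processed intensity minus its array's 75th percentile was computed, since the deposited signals carry no log2 scale. Control spots and outlier spots were left out, and repeated spots averaged. A probe entered the test if both arrays of any 1 group read it as well above background, and a gene was its tested probe with the highest mean, giving 22919 targets. A limma 3.58.1 fit in R 4.3.3 of 4 group means over 8 arrays, with 4 residual and 1.83 prior degrees of freedom, gave 5 comparisons with Benjamini-Hochberg adjustment over all targets, called below 0.05. With 2 arrays a group the smallest exact permutation p is 0.33, so no such test was run. The fit was tested on simulated data with independent noise on each array. That test therefore left out the shared deviation of arrays on the same slide.

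The text names every member with every probe, Keap1 and Nfe2l2, and the neighbours called between the lines or in the shift with growth. From each pathway list it names some, not all, of the up to 3 most changed called genes per genotype comparison. It also names the 5 genes most like Gstm1 and Gstp1, the mu and pi members with the highest mean signal. That rule of choice does not rank their expression. The members and lists were chosen with earlier results of these data known. The replicate number marks the slide in the file headers, and same-numbered arrays deviated together in all 6 pairs of groups (r from 0.247 to 0.429), so it was run as a block. Alternatives were the scaling, background correction, probe filter, probe summary, arrays fitted, the block and each array left out. Planned normexp on mean signals was run on median signals instead, an alternative chosen after seeing the data. Precision is limited by having 2 arrays a group.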

Additional observations from a re-analysis of the deposited data

Results flagged for a closer look

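The difference between the Keap1-/- and WT lines was not the same in allograft and dish for 4 members, by the limma test of the change itself. Gstm2 was lower in the Keap1-/- line in allograft and higher in dish, a shift of -2.30 log2 units (limma adjusted p = 0.000179). Gstm4 went the same way by -1.53 (limma adjusted p = 0.00351), and Gstm5 shifted by -0.64 (limma adjusted p = 0.0148). The call of Gstm4 as higher in dish held in only 5 of 18 alternatives, and normexp gave -0.76 for its shift. The Gstm5 shift kept its call in 13 of 17. Gstp1 went the other way, higher in the Keap1-/- line in allograft and lower in dish, by 1.88 (limma adjusted p = 0.000517). Across all targets 32.9% were called in this comparison.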

How the results depend on the processing

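Gstm1, Gstm2 and Gstm3 kept their direction and call between the lines, in allograft and in dish, in all 18 alternatives, as did Gstm4 and Gstp1 in allograft. The shift with growth of Gstm2, Gstm4 and Gstp1 kept its call in all 17. Of 392 results of single members outside those that leave out an array, 352 stayed the same, 16 lost a call and 7 gained one with their direction kept, and 17 changed sign, with or without a change of call; of 320 with an array left out, 295 stayed the same, 11 lost a call with their direction kept and 14 changed sign.
The number of targets called between the lines in dish was 4843, and 2620 with unscaled intensities, 2857 with normexp and 2372 to 4450 with 1 array left out (2372 and 2373 without Keap1-/- dish replicate 1 or 2, 2924 and 3206 without WT dish replicate 1 or 2). The replicate block, which is also the block for slide and scan, changed no member's call, and gave 6517 targets called in dish and 11418 in allograft.
Array-median scaling moves all genes of an array alike, and its sign changes, which follow from that shift, were the growth difference of Gstm1 in the Keap1-/- line (-0.74), of Gstm3 (-0.97) and Gstm6 (-0.14) in the WT line and the shift of Gstm3 (0.089). Under quantile normalization they were the growth difference in the WT line of Gstm1 (0.39), Gstm5 (0.13) and Gstm6 (-0.12), that of Gstm3 in the Keap1-/- line (0.16) and the allograft difference of Gstm5 (-0.0035), and the cause was not tested. With unscaled intensities, which also shift an array's genes alike, they were the WT growth difference of Gstm1 (0.34) and Gstm5 (0.26), the Keap1-/- one of Gstm3 (0.019), the allograft difference of Gstm5 (-0.15), the dish difference of Gstm7 (0.093) and the shift of Gstm1 (-0.19) and Gstm6 (-0.087); with normexp, the WT growth difference of Gstm1 (0.015), the cause not being tested.
With 1 array left out, the WT growth difference ranged from -0.11 to 0.036 for Gstm1, -0.039 to 0.14 for Gstm3 and -0.0068 to 2.47 for Gstm7, and the Keap1-/- one from -0.055 to 0.026 for Gstm3, -0.40 to 0.0028 for Gstm4 and -0.18 to 1.93 for Gstm7. The shift ranged from -0.16 to 0.025 for Gstm3 and -1.59 to 0.88 for Gstm7, and the line difference of Gstm7 from -1.62 to 0.85 in allograft and -0.56 to 0.49 in dish. Of all called targets, the higher ones made up 27.3% in the Keap1-/- growth comparison and 25.9% in the WT one under array-median scaling, 44.5% under quantile normalization in the Keap1-/- one, and 78.5% with unscaled intensities in the WT one, against 55.2% and 52.7% as reported. Between the lines they made up 30.5% in allograft and 76.4% in dish with unscaled intensities and 37.3% in dish with array-median scaling, against 49% and 53.7%. For the shift with growth unscaled intensities gave 23.3%, against 48.2%. The Gstm7 probe, at 14.2 to 134 intensity units, had the widest error of the members' probes. The probes of Gstm4 (34.8 to 132 units) and Gstm6 (57.1 to 210 units) were also dim, beside array medians of 44.8 to 137. The planned blocks for slide and for scan divide the arrays as the replicate block does, and were not run apart.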
